A study of Mus musculus with 5 samples.

Results

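The comparison described here sets 2 hairpins against Tet1 beside 1 scrambled hairpin in E14 mouse embryonic stem cells, and uses 3 of the 5 arrays of the series. Members were chosen by their labels: the E14 array titled Scr_shRNA is the control, and the arrays titled Tet1_shRNA3387 and Tet1_shRNA2863 carry hairpins against Tet1. Strain E14 cells had been grown without feeder cells, infected with lentivirus delivering the hairpin, selected with puromycin for 4 days and then harvested, so that infection and selection are shared by all 3 groups. Each group is 1 array, and the labels do not say whether the cells of an array were a pool or a clone. The other 2 arrays are J1 stem cells on mouse embryonic fibroblast feeders, which had received a control siRNA or a Tet1 siRNA 4 days before harvest, and serve here only as a second look at the genes found in E14. The series asks which genes depend on Tet1 in these cells.

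Tet1 is a dioxygenase that oxidises 5-methylcytosine in DNA to 5-hydroxymethylcytosine, a step towards the loss of methylation, and it binds many CpG-rich promoters. In embryonic stem cells it is abundant together with Tet2, while Tet3 belongs mainly to the oocyte and to differentiated cells. Imprinted genes, germline genes and lineage regulators are among the classes of genes whose expression is tied to DNA methylation.

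Values are log2 probe set signals as deposited, and a difference is the hairpin array minus the scramble array on that scale. A probe set is a group of probes on the array that reads 1 stretch of a transcript, and many genes have several. Because both differences use the same scramble array, a deviation of that array alone appears in both. A gene was therefore described first by whether both hairpins differed from scramble by at least 2-fold in the same direction at its brightest probe set. It was then described by what its other probe sets showed. A probe set counts as detected where it exceeded the 40th percentile of its array, 3.12, 3.05 and 3.09 for scramble, shRNA3387 and shRNA2863, on at least 1 of the 3 arrays. With array controls left out, correlations between the E14 arrays ran from 0.993 to 0.996. With 1 array a group, folds carry no error, and the exact permutation test of 2 arrays against 1 cannot give a p below 0.333.

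Tet1 was lower with both hairpins in each of its detected probe sets. The brightest probe set read 10.95 in scramble, 9.24 with shRNA3387 and 10.06 with shRNA2863. The next read 8.74, 6.34 and 7.56, and a weaker one 6.86, 5.06 and 5.85, in the same order. In all 3 probe sets scramble was highest, shRNA2863 lay between and shRNA3387 was lowest. The fourth lay under the detection level, at 2.28, 2.25 and 2.27. At the brightest probe set the shRNA2863 difference of -0.89 is short of 2-fold, so that Tet1 itself is not among the genes counted below as 2-fold different with both hairpins. The mean difference was -1.30 ± 0.48 (SE from limma, 2 hairpin arrays against 1), with an unadjusted p of 0.104 and a Benjamini-Hochberg adjusted p of 0.543.

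The cells kept the profile of embryonic stem cells. All 7 stem cell markers, among them Pou5f1, Sox2 and Nanog, lay above the 60th percentile, with medians of 11.60, 11.34 and 11.24 in scramble, shRNA3387 and shRNA2863. Of the markers of other cell types, the blood markers Gata1 (4.05, 4.02 and 4.03) and Klf1 (3.62, 3.40 and 3.41) stayed under the 60th percentile. Of 9 fibroblast markers 7 were kept, with a summed linear signal of 2500, 1980 and 2130, highest in scramble. Most of that sum is Vim (10.19, 9.87 and 9.82) and Fn1 (10.27, 9.91 and 10.13), while Thy1 was higher with both hairpins (4.95, 5.38 and 5.73) and Col1a2 level (3.62, 3.59 and 3.61). The 3 kept neuroectoderm markers of 5 summed to 425, 259 and 279. The 4 kept trophectoderm markers of 6 summed to 1980, 1350 and 3200, highest with shRNA2863. Most of that sum is the keratins Krt8 (9.92, 9.21 and 10.59) and Krt18 (9.83, 9.24 and 10.56). Eomes was higher with both hairpins (6.43, 7.14 and 7.10) and Hand1 lowest with shRNA2863 (3.61, 3.89 and 3.18). In such bulk RNA, fewer cells of a type and less RNA per cell cannot be told apart.

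The scramble array stood apart from both hairpin arrays in probe sets that do not read messenger RNA. The 3 probe sets for 18S ribosomal RNA were lower with both hairpins, with medians of 11.26, 9.75 and 10.13. Of the 24 probe sets for bacterial transcripts that are added to a sample with a poly-A tail, 23 were higher with both, with medians of 5.56, 6.54 and 6.43. The 18 hybridisation spikes differed less, with medians of 8.08, 7.79 and 7.94. Gapdh control probe sets had medians of 13.25, 13.24 and 13.25. The log2 signal of the 3′ over the 5′ probe set was 0.41, 0.51 and 0.54 for Actb. The part of this offset in the gene differences was not tested.

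**Figure D1:**
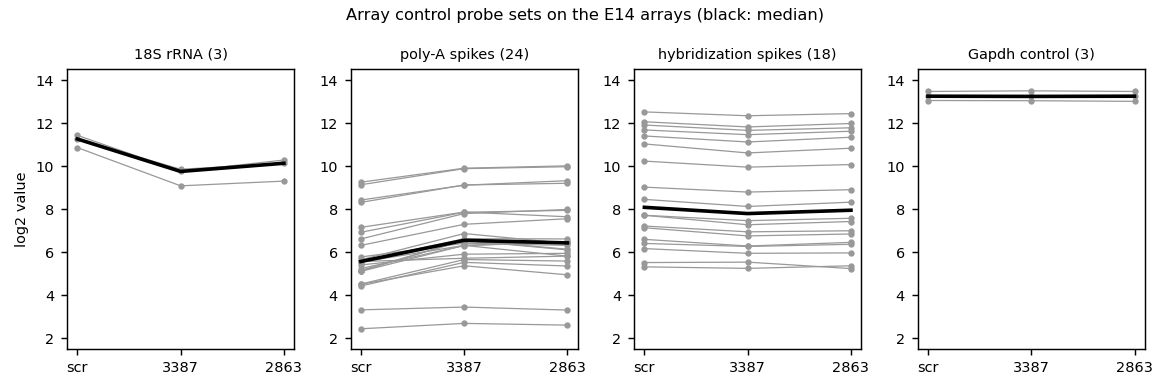
Log2 signal of the array control probe sets on the E14 scramble, shRNA3387 and shRNA2863 arrays, with 1 grey line per probe set, the median in black and 1 panel per class. The 18S ribosomal RNA lines fall from scramble to both hairpins and 23 of the 24 poly-A spike lines are higher with both, while the Gapdh lines are level within 0.04.

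Of 13619 genes, 32 were at least 2-fold higher with both hairpins (0.235%) and 41 at least 2-fold lower (0.301%), 73 in all (0.536%). The hairpins taken singly gave more: shRNA3387 had 157 genes higher (1.15%) and 89 lower (0.653%), and shRNA2863 had 80 higher (0.587%) and 83 lower (0.609%). No gene was 2-fold different in opposite directions, and 12 were 1.5-fold different in opposite directions (0.0881%). The split between higher and lower moved with the scaling, to 25 higher and 53 lower after quantile normalisation and 45 higher and 36 lower after median centring of the 3 arrays. With the median difference over a gene's probe sets past the filter in place of the brightest, 46 genes passed, 15 higher and 31 lower. Limma called 0 of 13619 genes at an adjusted p under 0.05, with a lowest adjusted p of 0.344; 1511 genes had an unadjusted p under 0.05, 616 higher (4.52%) and 895 lower (6.57%). Its spread came only from how far the 2 hairpin arrays lay from each other.

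**Figure D2:**
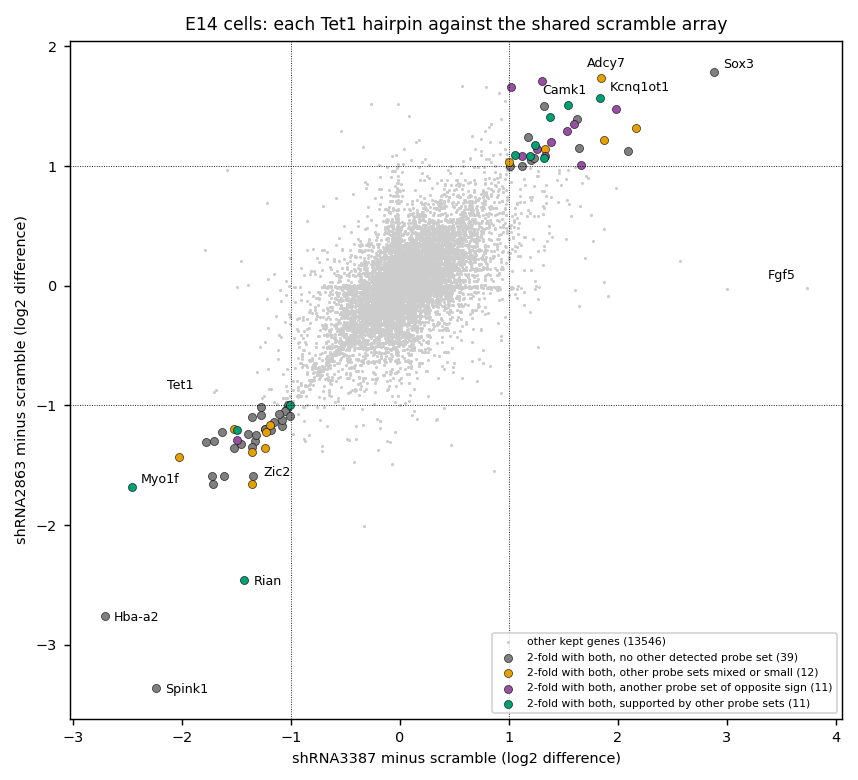
Difference from scramble with shRNA3387 (horizontal axis, log2) against that with shRNA2863 (vertical axis, log2) for each kept gene, with dotted lines at 2-fold and the 73 genes past them coloured by what their other probe sets showed. Both axes share the scramble array, so a deviation of that array shifts a point along the diagonal; Tet1 lies just above the lower dotted line at -1.71 and -0.89.

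What the rest of a gene's probe sets showed divided the 73 genes. Only probe sets that list 1 gene symbol were counted as others. For 39 (10 higher, 29 lower) no other such probe set was detected, so that 1 probe set carries the result. Among the 39, Hba-a2 and Rpl27a also have a detected probe set listing several genes, described below. Another 11 were supported: every other detected probe set had the same sign with both hairpins and at least 1 of them differed by 1.5-fold or more with both. A further 12 had other probe sets that did not reach this. In the last 11, 10 of them higher, another detected probe set had the opposite sign with both hairpins. For 7 of these 10 the opposite probe set differed by 0.1 or less with each hairpin, and for Prelid3a by -0.30 and -0.01; over the 17021 probe sets under the detection level the median difference was -0.03 and -0.01 with shRNA3387 and shRNA2863. Only 2 higher genes and 1 lower gene had another probe set that moved the opposite way by more than 0.1 with both hairpins. Among genes with another detected probe set, 10 of 22 higher and 1 of 12 lower ones were thus opposed. Over all such kept genes with the same sign with both hairpins, the shares were 45.2% and 22%. At 1.5-fold with both they were 40.5% and 8.7%, and 9.8% and 7.25% for opposition by more than 0.1.

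The 11 supported genes were Kcnq1ot1, Camk1, Cd44, Cnot6l, Celf2, Cachd1 and Btbd7 on the higher side and Myo1f, Rian, Mras and Igsf23 on the lower. Of these, 2 are noncoding RNAs of imprinted clusters, Kcnq1ot1 and Rian. The 250 bases before the annotated start of 4 genes are shown because Tet1 acts on methylated CpG, and these genes differ in how much CpG lies at the start. Kcnq1ot1 (chr7:143296548-143296797, minus strand) and Cd44 (chr2:102901666-102901915, minus strand) stood higher, Rian (chr12:109603695-109603944, plus strand) and Gbx2 (chr1:89931177-89931426, minus strand) lower. Sequences are those of RefSeq on GRCm38.p6, 5′ to 3′ on the strand of the gene, with each CG dinucleotide, which reads the same on both strands, in capitals.
Kcnq1ot1: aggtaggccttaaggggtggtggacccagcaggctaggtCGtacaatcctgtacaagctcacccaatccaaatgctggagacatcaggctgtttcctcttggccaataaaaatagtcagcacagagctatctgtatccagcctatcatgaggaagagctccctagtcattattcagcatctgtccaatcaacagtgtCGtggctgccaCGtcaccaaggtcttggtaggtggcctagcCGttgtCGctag
Cd44: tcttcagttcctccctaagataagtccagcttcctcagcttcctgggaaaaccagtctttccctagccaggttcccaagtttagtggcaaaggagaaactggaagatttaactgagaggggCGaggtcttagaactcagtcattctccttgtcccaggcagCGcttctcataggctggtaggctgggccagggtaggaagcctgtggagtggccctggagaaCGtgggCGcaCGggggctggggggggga
Rian: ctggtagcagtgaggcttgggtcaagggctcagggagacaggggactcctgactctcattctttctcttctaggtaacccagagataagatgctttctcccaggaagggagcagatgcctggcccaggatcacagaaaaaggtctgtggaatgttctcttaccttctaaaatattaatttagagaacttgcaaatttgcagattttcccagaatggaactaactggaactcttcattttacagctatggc
Gbx2: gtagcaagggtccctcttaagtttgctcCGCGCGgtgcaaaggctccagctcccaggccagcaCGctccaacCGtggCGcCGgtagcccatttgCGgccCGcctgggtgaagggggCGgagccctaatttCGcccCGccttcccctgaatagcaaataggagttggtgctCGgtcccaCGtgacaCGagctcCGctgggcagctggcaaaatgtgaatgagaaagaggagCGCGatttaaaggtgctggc
The windows of Kcnq1ot1 and Cd44 hold 5 CG each, or 0.31 and 0.26 of the number that their C and G content predicts. The window of Rian holds 0 and that of Gbx2 18, or 0.76 of the prediction. Gbx2 is not among the 11 supported genes, and the 4 windows do not represent their groups. With 50 bases after the start included, the median ratio was 0.71 in the higher and 0.45 in the lower genes. Kcnq1ot1 and Cd44 lie under the first median, and Gbx2 above the second.

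Kcnq1ot1 is the paternally expressed antisense RNA that silences neighbouring genes of the Kcnq1 imprinted domain. Its brightest probe set read 6.13 in scramble, 7.97 with shRNA3387 and 7.70 with shRNA2863, and its second 4.86, 6.62 and 6.38. Both hairpin arrays lay well above scramble, by 3.58-fold and 2.97-fold at the brightest. The third was nearly level at 4.63, 4.71 and 4.71. The mean difference was 1.71 ± 0.18 (SE from limma, adjusted p = 0.362). Imprinted genes of the same domain were not higher with both: Cdkn1c, a cell cycle inhibitor, read 6.68, 5.85 and 6.37, and Phlda2, a brake on placental growth, 9.76, 9.74 and 9.77.

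Rian is a maternally expressed noncoding RNA of the Dlk1-Meg3 cluster that hosts small nucleolar RNAs. It read 8.69, 7.26 and 6.23 in scramble, shRNA3387 and shRNA2863 at its brightest probe set and 8.0, 6.89 and 6.20 at the next, so that it was 2.69-fold and 5.50-fold lower at the brightest. The other 2 detected probe sets, at 5.17, 5.16 and 4.67 and at 4.74, 4.70 and 4.72, showed little. The hairpins differed from each other by 1.03 on the log2 scale, beside a median of 0.11 over all kept genes, and limma gave an adjusted p of 0.496. Unlike Tet1, Rian was lowest with shRNA2863. Its neighbours in the cluster were not lower with both: Meg3 read 10.01, 10.44 and 9.79, Mirg 7.63, 7.97 and 7.62, and the protein-coding Dlk1 4.99, 5.01 and 5.74.

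Cd44, the hyaluronan receptor, read 4.46, 5.84 and 5.87 in scramble, shRNA3387 and shRNA2863, with a second probe set at 3.02, 3.69 and 3.88. Camk1, a calcium/calmodulin-dependent kinase, read 3.17, 4.71 and 4.68, with a second at 3.12, 4.29 and 3.80. In both genes the hairpin arrays lay above scramble in each probe set, and at the brightest they were within 0.03 of each other. Scramble sat near the detection level for Camk1, so its folds of 2.91 and 2.85 rest on a weak control signal. At the second Cd44 probe set scramble, at 3.02, lay under its detection level of 3.12. Cachd1, a relative of calcium channel subunits, read 6.36, 7.68 and 7.43, and its other probe set 4.44, 5.55 and 5.29.

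A pair of the higher genes act on RNA. Celf2, a splicing regulator, was higher in each of 3 detected probe sets, which read 5.68, 6.87 and 6.76, then 4.99, 6.17 and 5.92, then 5.50, 6.25 and 6.09 in scramble, shRNA3387 and shRNA2863. Cnot6l, a deadenylase of the CCR4-NOT complex, read 5.90, 7.14 and 7.08 at its brightest and between 3.98 and 5.30 at the other 3, all higher with both hairpins. The smallest Cnot6l step was at the probe set with 4.56, 4.75 and 4.64. Btbd7, a BTB-domain protein, read 6.58, 7.64 and 7.67, and its other probe sets 4.14, 5.47 and 4.92, and 3.71, 3.85 and 4.57. The limma adjusted p for these 3 genes ran from 0.344 to 0.350.

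On the lower side, Myo1f, an unconventional myosin best known from immune cells, read 6.40, 3.94 and 4.72 in scramble, shRNA3387 and shRNA2863. Its second probe set read 6.53, 3.77 and 4.33, and the weakest 3.94, 3.43 and 3.44. All 3 were highest in scramble, and the brightest differed by 5.50-fold and 3.20-fold. Mras, a GTPase of the Ras family, read 6.52, 5.02 and 5.31, with a second probe set at 4.64, 4.01 and 4.02. Igsf23, a member of the immunoglobulin superfamily, lay just at 2-fold, with 6.85, 5.84 and 5.85, and 5.78, 5.16 and 5.08 at its other probe set.

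**Figure D3:**
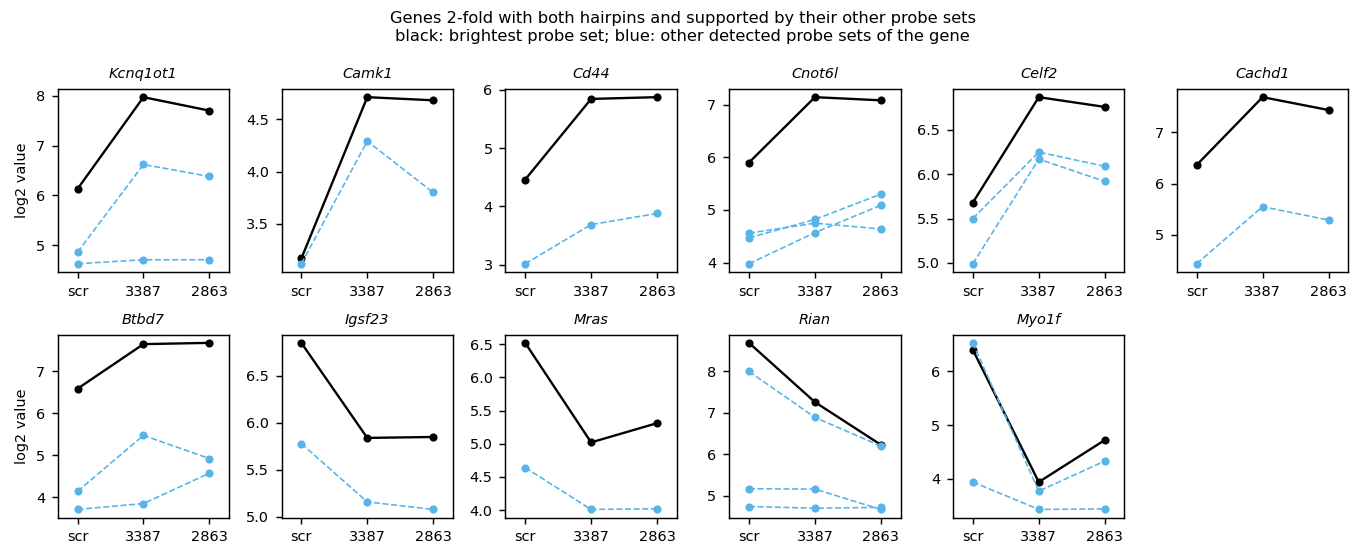
Log2 signal of every detected probe set of the 11 supported genes on the scramble, shRNA3387 and shRNA2863 arrays, 1 panel per gene and 1 line per probe set, with the brightest emphasised. In each panel all lines step the same way from scramble to both hairpins, by steps that range from 2.76 at a Myo1f probe set to 0.01 at a Rian probe set.

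At a lower threshold of 1.5-fold with both hairpins, 255 genes were higher (1.87%) and 228 lower (1.67%), 483 in all (3.55%), and 36 of them were supported by the same demand on their other detected probe sets, 24 higher and 12 lower. Tet1 is among the 12. So are Neurod1, a proneural factor, at 7.93, 7.21 and 6.55 in scramble, shRNA3387 and shRNA2863, and Vegfc, a growth factor of lymphatic vessels, at 7.14, 6.33 and 6.54. Both were highest in scramble, as was Serpinh1, a collagen chaperone (8.24, 7.34 and 7.63). Among the 24 higher genes were Cyp51, an enzyme of cholesterol synthesis, and the growth-associated chromatin protein Hmga2, at 7.34, 7.97 and 8.09. Cdk6, a cyclin-dependent kinase, read 7.01, 7.64 and 7.68, and Adam10, a membrane protease, 7.43, 8.12 and 8.02. Genes in this paragraph other than Tet1, Neurod1, Cyp51 and Cdk6 were picked after their values were seen.

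In the 11 genes with an opposed probe set, the call rests on 1 probe set out of at least 2. Hipk1, a homeodomain-interacting kinase, read 6.68, 8.21 and 7.97 in scramble, shRNA3387 and shRNA2863 at its brightest and 4.02, 3.99 and 4.00 at its other detected probe set. Farp1, an exchange factor for small GTPases, read 4.97, 6.27 and 6.68, then 3.23, 3.20 and 3.22. In both, the other probe set was flat, and that of Farp1 lay near the detection level. The larger reversals were in Insyn2a, with 3.61, 5.59 and 5.09 against 4.02, 3.46 and 3.63, and in Marf1, a regulator of oocyte meiosis, with 7.19, 5.69 and 5.90 against 3.92, 4.99 and 4.71. Snhg11, a small nucleolar RNA host gene, reversed by -0.18 and -0.17. The other members were Ptn, Fam171b, Greb1, L3mbtl3, Pofut1 and Prelid3a, all higher at the brightest probe set. The median of the mean differences over the 3 Marf1 probe sets was -0.07.

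**Figure D4:**
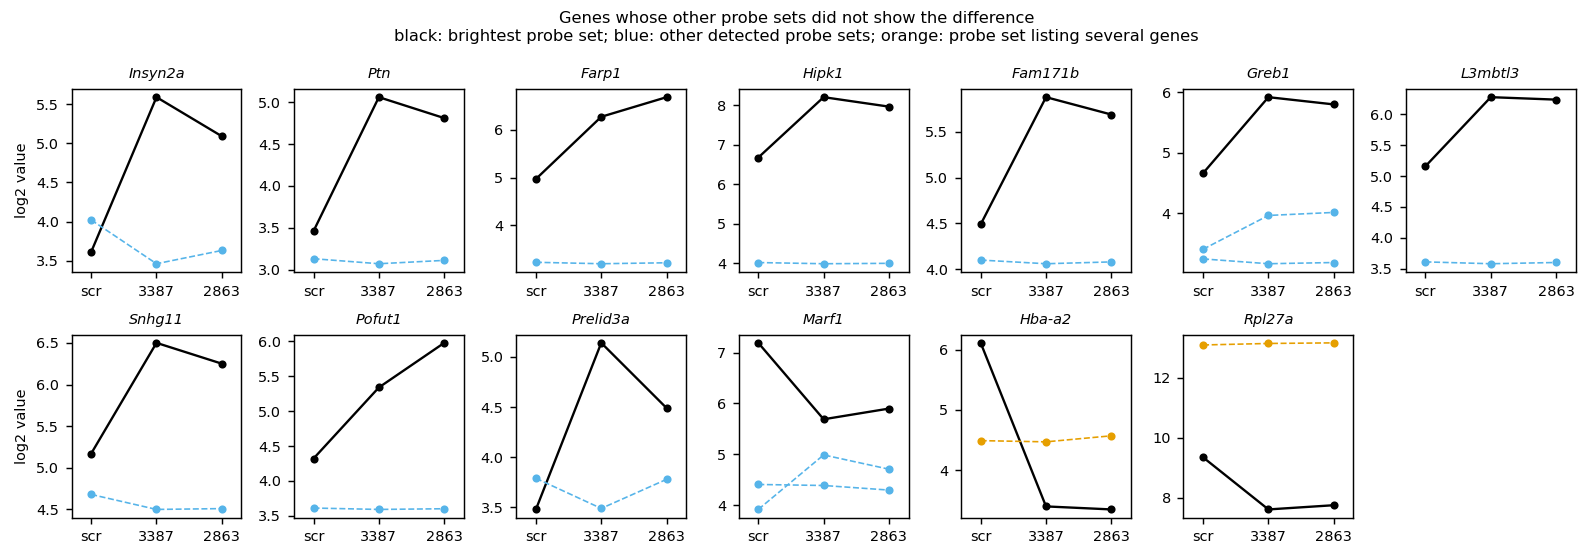
Log2 signal of every detected probe set of the 11 genes with an opposed probe set, and of Hba-a2 and Rpl27a, 1 panel per gene. In the 11, another probe set had the opposite sign with both hairpins. The arrays are scramble, shRNA3387 and shRNA2863, and orange lines are probe sets listing several genes. The brightest probe set naming 1 gene steps by at least 2-fold. The others are nearly flat in most panels and clearly reversed in Insyn2a and Marf1, while 1 of Greb1 steps the same way by 0.56 and 0.61.

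The 12 genes with partial support were Vapb, Dbp, H2aw, Agbl5, Rpgrip1, Xaf1 and Ackr4 on the lower side and Fst, Mid1, Tmem164, Fut9 and Adcy7 on the higher. Adcy7, an adenylate cyclase, read 4.48, 6.33 and 6.22 in scramble, shRNA3387 and shRNA2863 at its brightest probe set, while its other read 4.61, 4.63 and 5.52 and so was higher with shRNA2863 alone. Fut9, which makes the Lewis X sugar of the stem cell surface, read 4.95, 7.12 and 6.27, and its other 3.15, 3.80 and 3.13. Dbp, a clock-controlled transcription factor, read 6.77, 5.41 and 5.11, and its other 4.63, 4.60 and 4.60. Vapb, a tether of the endoplasmic reticulum, read 8.14, 6.11 and 6.71, and its 2 others differed from scramble by 0.06 or less. Fst, the activin antagonist follistatin, read 6.39, 7.39 and 7.42, with its other at 4.33, 4.47 and 4.48.

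The 39 genes with a single detected probe set of 1 gene symbol hold the largest differences. Sox3, a SoxB1 factor of epiblast and neural progenitors, read 3.73 in scramble, 6.61 with shRNA3387 and 5.52 with shRNA2863, and its other probe set lay under the detection level. Spink1, a secreted trypsin inhibitor, read 8.26, 6.02 and 4.90. Both genes separate the arrays widely, and in both the hairpins also differed from each other, by 1.09 for Sox3 and 1.12 for Spink1 on the log2 scale. Zic2, a zinc finger factor of the epiblast and neural plate, read 6.44, 5.09 and 4.85. Gbx2, a homeobox factor and LIF target, read 7.50, 6.18 and 6.25, and its limma adjusted p was 0.344.

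Other single-probe-set genes stood at higher levels of signal. Raly, an RNA-binding protein, read 9.84, 8.22 and 8.25 in scramble, shRNA3387 and shRNA2863. Kifc1, a minus-end kinesin of the spindle, read 8.98, 7.52 and 7.66, and Emp1, a membrane protein, 7.46, 5.94 and 6.10. In each the hairpin arrays lay within 0.16 of each other. Others on the lower side were Tgm1, Plekhg1, Rtn1, Pnma5, Rnase4, Poc1a, Ltb and the cell cycle inhibitor gene Cdkn2a, which read 3.88, 2.55 and 2.58. A further 10 lower genes, Islr2, Tmem88b, Sult6b1, Drd3, Nr2e1, AI854703, Scgb3a1, Npas1, Dclk3 and 4930500G05Rik, had scramble signals of 3.29 to 5.28. On the higher side were Ank, a pyrophosphate transporter (5.22, 6.54 and 6.72), Bbs5, a subunit of the ciliary BBSome (3.33, 5.42 and 4.46), Esx1, a placental homeobox factor (2.97, 4.61 and 4.12), and Rps6kc1 (2.63, 4.26 and 4.02). The remaining higher ones were Mex3b, Ms4a4d, Oma1, Sos2 and Spryd3.

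For Hba-a2 and Rpl27a, probe sets that the annotation assigns to several genes were read as well, a check added after the values were seen. Hba-a2, an alpha globin gene, read 6.11, 3.40 and 3.35 in scramble, shRNA3387 and shRNA2863. The detected probe set that it shares with Hba-a1 read 4.49, 4.47 and 4.57 and so did not differ with either hairpin. Rpl27a, a protein of the large ribosomal subunit, read 9.35, 7.62 and 7.76 at the probe set naming it alone. The probe set listing 5 genes including it read 13.08, 13.13 and 13.15. Of the other 26 ribosomal protein genes kept, 0 differed by 1.5-fold with both hairpins, nor did any of the other 7 kept members of the globin and blood list. Over all kept genes the share was 3.55%, and in lists this short a count of 0 is near that share. In H2aw, a histone gene, the shared probe set was lower at 4.38, 3.95 and 3.98, by less than 1.5-fold.

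Some of the folds rest on signals near the floor. Of the 32 higher genes, scramble lay under the detection level in 3. Of the 41 lower genes, both hairpin arrays lay under it in 5 and 1 of them in 1 more. On at least 1 E14 array, 66 of the 73 genes exceeded the 60th percentile. Probe sets with no gene name stood more often on the higher side: of 4152 detected ones, 99 were 2-fold higher with both hairpins (2.38%) and 16 lower (0.385%). Among the 23216 detected probe sets with 1 gene symbol the counts were 85 (0.366%) and 68 (0.293%). Whether the unnamed ones are other parts of the transcripts of named genes was not tested.

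By gene list, cholesterol synthesis was the group whose members most often stood on 1 side. Of 27 listed genes 22 were kept, and 14 of them were higher with both hairpins and 0 lower, where 28.7% of all kept genes were higher with both and 42.4% lower. The median difference was 0.60 with shRNA3387 and 0.18 with shRNA2863, beside -0.02 and -0.01 over all kept genes. Cyp51, a sterol demethylase, read 6.32, 7.71 and 7.06 in scramble, shRNA3387 and shRNA2863, and its other detected probe set 5.88, 7.54 and 6.64. Stard4, a sterol carrier, read 6.01, 6.75 and 6.78. Its other detected probe sets read 5.32, 5.96 and 5.57, and a flat 5.73, 5.71 and 5.73. Cyp51 and Stard4 were the only members at 1.5-fold with both (9.09% higher, beside 1.87% of all kept genes). In J1 the median difference of the list was -0.12, beside -0.01 over all kept genes. Sqle, the squalene epoxidase, read 7.95, 8.84 and 8.34, and Scd1, a fatty acid desaturase, 7.62, 8.94 and 7.95, higher mainly with shRNA3387.

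**Figure D5:**
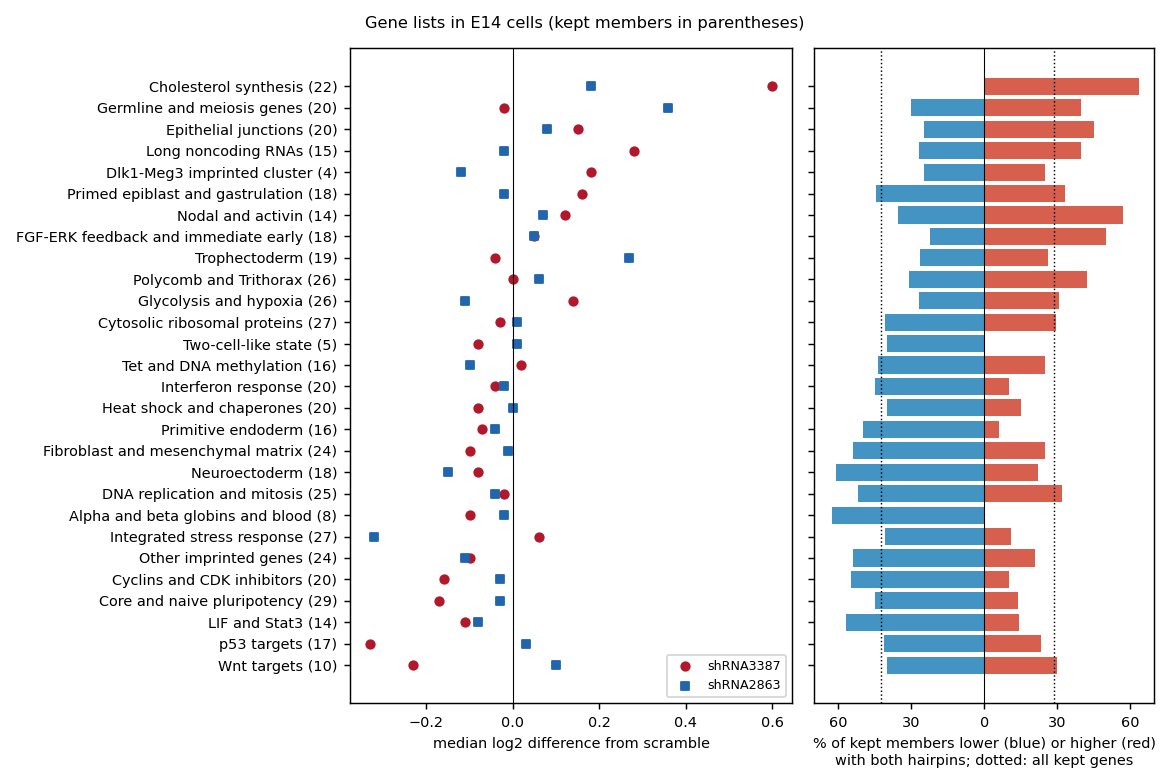
Median difference from scramble over the kept members of each gene list, with circles for shRNA3387 and squares for shRNA2863 (left, log2), and the percent of kept members lower or higher with both hairpins (right, bars), with dotted lines at the 42.4% and 28.7% of all kept genes. Most lists lie within 0.4 of 0, and cholesterol synthesis has the highest shRNA3387 median, 0.60, and a shRNA2863 median of 0.18.

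Most pluripotency genes showed small differences. Of 29 kept core and naive factors, 4 were higher (13.8%, beside 28.7% of all kept genes) and 13 lower (44.8%, beside 42.4%) with both hairpins. By 1.5-fold 2 were lower (6.90%, beside 1.67%), Gbx2 and Tcl1, an Akt coactivator (8.34, 7.69 and 7.68 in scramble, shRNA3387 and shRNA2863). Pou5f1, which encodes Oct4, read 11.60, 11.34 and 11.24, and Nanog 10.53, 10.43 and 10.55. The naive factor Tbx3 read 8.94, 7.54 and 8.95 and was lower with shRNA3387 alone. Lin28a was lower mainly with shRNA2863, at 10.50, 10.29 and 9.39, and its other detected probe set read 7.79, 7.77 and 6.94. Among the 16 kept genes of DNA methylation and its removal only Tet1 passed 1.5-fold with both (6.25% lower, beside 1.67% of all kept genes). Tet2 read 8.38, 8.19 and 8.21, the maintenance methyltransferase Dnmt1 10.05, 10.10 and 10.15, and its partner Uhrf1 10.61, 10.93 and 11.01. Among the de novo enzymes, Dnmt3a read 7.61, 7.72 and 7.31 and Dnmt3b 11.49, 12.02 and 11.62.

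Lineage genes moved in both directions. Of 18 kept neuroectoderm genes, 3 were at least 1.5-fold higher with both hairpins (Sox3, the growth factor gene Ptn and the homeobox gene En2), or 16.7% beside 1.87% of all kept genes, and 4 at least 1.5-fold lower (Gbx2, Neurod1, Pax6 and the neuronal tubulin gene Tubb3), or 22.2% beside 1.67%. Pax6, an eye and forebrain factor, read 5.33, 4.61 and 3.99 in scramble, shRNA3387 and shRNA2863, and Tubb3 read 8.36, 7.55 and 7.74. The other detected probe set of Pax6 was not lower with both hairpins, and that of Ptn was nearly level at 3.13, 3.07 and 3.11. That of Neurod1 was lower with both, at 7.08, 6.22 and 5.19. Sox3, En2, Gbx2 and Tubb3 had no other detected probe set. En2 read 4.89, 5.73 and 5.70. Eomes, a T-box factor of the trophoblast and primitive streak, read 6.43, 7.14 and 7.10. Lama1, a basement membrane laminin, read 7.0, 6.33 and 5.83. Fgf5, the classic marker of the primed epiblast, read 2.91, 6.65 and 2.89: it was higher on the shRNA3387 array alone and so fails the requirement that both hairpins agree.

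Imprinted and germline genes were also divided. Outside the Dlk1-Meg3 cluster, 24 imprinted genes were kept, 5 higher (20.8%, beside 28.7% of all kept genes) and 13 lower (54.2%, beside 42.4%) with both hairpins. Past 1.5-fold with both were Kcnq1ot1 on the higher side (4.17% of the list) and, on the lower (8.33%), Peg3 and Peg10. Peg3, a zinc finger gene, read 9.04, 8.09 and 8.24 in scramble, shRNA3387 and shRNA2863, and its other detected probe sets 6.15, 5.75 and 5.44, and 3.71, 3.22 and 3.23, lower by less than 1.5-fold with at least 1 hairpin. Peg10, a retrotransposon-derived placental gene, read 5.03, 4.19 and 4.20. Of 20 kept germline and meiosis genes, 3 were at least 1.5-fold higher with both (15%, beside 1.87% of all kept genes). Dmrt1, a testis regulator, read 6.64, 7.55 and 8.25; Sycp1, a protein of the synaptonemal complex, 4.44, 5.26 and 5.77; and Mael, of the piRNA pathway, 7.60, 8.26 and 8.85. All 3 were highest with shRNA2863, the hairpin that left more Tet1 signal. With Tet1 siRNA in J1, Dmrt1 differed by -1.27, Mael by -0.49 and Sycp1 by 0.13. The median J1 difference of the germline list was -0.45, beside -0.01 over all kept genes. Gpat2, a germ cell acyltransferase, was lower at 4.37, 3.09 and 3.29, and differed by -0.87 in J1.

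In 9 further lists no member reached 1.5-fold with both hairpins: the FGF-ERK, Nodal and activin, Polycomb and Trithorax, interferon, p53, DNA replication and mitosis, glycolysis and hypoxia, heat shock and two-cell-like state lists. These lists kept 5 to 26 members each. Over all kept genes the share was 3.55%, and in lists this short a count of 0 is near that share. In the integrated stress response list, Atf3, a stress-induced transcription factor, read 3.57, 4.88 and 4.24 in scramble, shRNA3387 and shRNA2863, and Aldh1l2, a mitochondrial folate enzyme, 4.64, 3.44 and 3.78. Among epithelial junction genes Marveld2, which encodes tricellulin, read 4.80, 5.99 and 5.78. Among fibroblast and mesenchymal genes, Cd44 was higher, and Col1a1 (4.61, 3.30 and 3.89) and Twist1 (3.65, 3.01 and 2.96) were lower by 1.5-fold with both. That is 4.17% higher and 8.33% lower of 24 kept genes. Marveld2 makes 5% of 20 kept junction genes, and Atf3 and Aldh1l2 3.7% each of 27 kept stress response genes. Over all kept genes 1.87% were higher and 1.67% lower by 1.5-fold with both.

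Genes on which the hairpins pointed opposite ways were few. Acta1, skeletal muscle actin, read 7.30, 5.71 and 8.27 in scramble, shRNA3387 and shRNA2863. Aldoc, a glycolytic aldolase, read 6.76, 7.69 and 5.86, and Cystm1 7.74, 8.60 and 6.19. Vldlr, a lipoprotein receptor, read 4.42, 5.13 and 3.62. In all 4, scramble lay between the hairpin arrays.

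The J1 pair has a control array of its own. Its values entered the filter and the choice of each gene's probe set, and with both made on the E14 arrays alone the same 73 genes were found. Still, cell line, feeders and way of depletion differ from E14 together. Array controls differed as well. Poly-A spikes had medians of 2.90 and 2.84 on the J1 control and Tet1 siRNA arrays, beside 5.56, 6.54 and 6.43 in scramble, shRNA3387 and shRNA2863. For 18S ribosomal RNA the medians were 5.40 and 5.76, beside 11.26, 9.75 and 10.13. Of the 32 higher genes, 20 were also higher in J1 with Tet1 siRNA and 5 by at least 1.5-fold, beside 2.91% of all kept genes. Of the 41 lower genes, 23 were lower in J1 and 14 by at least 1.5-fold, beside 6.09% of all kept genes. The median J1 difference was 0.06 for the higher and -0.19 for the lower genes, and -0.01 over all kept genes, of which 45.5% were above 0 and 50.4% below. Gbx2 (-1.29), Mras (-1.15), Ltb (-1.15), Marf1 (-1.15) and Spink1 (-1.84) on the lower side and Mex3b (1.01) on the higher differed by 2-fold or more the same way in J1. Most supported genes showed less: Cd44 differed by 0.25, Celf2 by 0.10, Cachd1 by 0.18, Cnot6l by 0.05, Btbd7 by -0.06, Myo1f and Igsf23 by 0.01, Camk1 by 0.61 and Rian by -0.60.

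The J1 arrays also give levels of the same probe sets in cells without a hairpin. 4930579H20Rik, a transcript known by its clone name, read 4.70 in scramble, 2.98 and 3.04 with shRNA3387 and shRNA2863, and 2.99 and 2.86 in J1 control and Tet1 siRNA cells. Myo1f read 6.40 in scramble, 3.94 and 4.72 with the hairpins, and 3.92 and 3.93 in J1. In both genes, picked after their values were seen, scramble was the highest of the 5 arrays and the farthest from the others. Both J1 arrays lay on the hairpin side of scramble in 24 of 32 higher genes (75%) and 35 of 41 lower genes (85.4%). Over all kept genes higher or lower with both hairpins, the shares were 55.2% and 64.6%. The scramble array itself entered the choice of the 73 genes. The cause was not tested.

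Promoter sequence was compared as a property that the choice of genes did not use. RefSeq promoter windows, 250 bases before to 50 after the start, matched 26 higher genes, 36 lower genes and 10930 of all kept genes. The number of CG dinucleotides over that predicted from C and G content had a median of 0.71 in higher genes, 0.45 in lower genes and 0.73 in all. It exceeded 0.6 in 61.5%, 38.9% and 66.0% of them. GC content had medians of 61.0%, 53.3% and 60.3%. At least 1 CG lay in 99.1% of all kept windows, and the lower genes held 1 window without any, that of Rian. The median of the lower genes was 0.27 with the filter at the 60th percentile and 0.57 after quantile normalisation.

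By chromosome, X carried 6 of the 73 genes (1.24% of its 483 kept genes), chromosome 14 also 6 (1.27% of 473) and chromosome 2 held 9 (0.841% of 1070), beside 0.536% of all kept genes. Only 2 pairs lay within 4 kept genes of each other. Zic2 and the sodium leak channel gene Nalcn on chromosome 14, with 3 kept genes between them, were both lower, by means of -1.47 and -1.22. L3mbtl3 and 4930579H20Rik on chromosome 10 were adjacent among kept genes and stood apart in direction, at 1.10 and -1.69.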

How the data were processed

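RNA of 5 samples was measured on Affymetrix arrays with 1 biotin-labelled sample each; the 3 E14 arrays carry the comparison. The authors deposited 1 value per probe set, taken here as log2 from its range. How the authors corrected background, summarised and normalised the log2 values is not given in the sources used here, and nothing further was done to them. Of 45101 probe sets, 64 are array controls; of the rest 34945 list 1 gene symbol in the platform annotation, 932 several and 9160 none. The brightest probe set over the 5 arrays stood for its gene (18193 genes), and 13619 genes above the 40th percentile on at least 1 array were kept, of which 13545 were matched to RefSeq on GRCm38.p6 by Entrez identifier. Of the kept genes, 5806 have at least 2 detected probe sets that list 1 gene symbol.

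Differences were hairpin minus scramble, with 2-fold as threshold and 1.5-fold as a second one. Limma 3.58.1 (R 4.3.3) was run with a trend, two-sided, adjusted over all kept genes by Benjamini-Hochberg; its prior and residual degrees of freedom sum to 2.19. That fit takes the lone scramble array to be as variable as the hairpin pair. Nothing says that arrays come from separate cultures, so its p-values reflect only how these arrays spread. The limma script was tested on simulated data. The labels name no batch, and 3 arrays limit the precision.

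The members and the gene lists were chosen with earlier results of these data known. The genes named by rule were the Tet genes, Pou5f1, Nanog, Sox2 and the DNA methyltransferases, the supported genes, the 8 largest each way with a single detected probe set, the 5 largest each way with an opposed one, 4 members of each list with every 2-fold member, all kept globin and Dlk1-Meg3 members, and the 4 largest with opposed hairpins. Others of the 73 genes and of the lists were named after their values were seen. Tet3 was under the filter. The alternatives were median centring, quantile normalization, a filter at the 60th percentile or none, a choice of probe sets on the E14 arrays alone, the median of differences over a gene's probe sets, a 1.5-fold threshold, limma without a trend or over 5 arrays, and each hairpin left out.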

Additional observations from a re-analysis of the deposited data

Results flagged for a closer look

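For 2 of the 73 genes the J1 pair differed in the opposite direction by at least 1.5-fold. Kcnq1ot1 was higher by a mean of 1.71 with both hairpins in E14 and differed by -0.61 with Tet1 siRNA in J1. Mid1, a microtubule-associated ubiquitin ligase, was higher by a mean of 1.24 in E14 (8.47 in scramble, 9.80 with shRNA3387 and 9.61 with shRNA2863) and differed by -0.90 in J1, where it read 4.16 and 3.26. The difference between the lines was not tested in either gene, since each J1 group is 1 array.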

How the results depend on the processing

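No paired analysis was possible because each group holds 1 array and the labels carry no replicate number. The 73 genes became 78 after quantile normalization (65 shared), 81 after median centring (68 shared), 67 with the filter at the 60th percentile and 46 (15 higher, 31 lower; 44 shared) with the median difference over a gene's probe sets. At 1.5-fold there were 483 genes (255 higher, 228 lower), 36 of them supported, and 4.97% lay on X, beside 8.22% of the 73. Of the 13619 kept genes, X carries a count that is also 483. With no filter 7 genes counted as supported instead of 11, because probe sets at background then count as others; this count could not be made for the median over probe sets. The promoter CpG ratio of the lower genes was 0.27 with the filter at the 60th percentile, beside 0.45. With 1 hairpin left out the count ran from 163 to 246 genes, 80 to 157 higher and 83 to 89 lower, with 23 to 44 supported. The cholesterol median then ran from 0.18 without shRNA3387 to 0.60 without shRNA2863. Scramble cannot be left out. Limma called 0 genes under the 7 alternatives, with lowest adjusted p from 0.218 to 0.502 and 1028 to 1787 genes at an unadjusted p under 0.05. Of the named genes 40 moved with the median over probe sets, among them Marf1, to -0.07. The limits are 1 array a group, a shared control, and folds near the floor where signal is hard to tell from background.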
